A study of Homo sapiens with 9 samples.

Results

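A set of 25 genes is described here that stood on opposite sides of the control when CHD9 was targeted with 2 different short hairpins. They were selected on measured values, namely the mean levels in the same 9 libraries that are reported below. Levels are given as CPM, the count of a gene divided by the total count of its library and multiplied by 1000000. A gene was kept if its mean over all libraries was at least 5 CPM and if its difference from the control hairpin, taken as log2 of the group mean plus 0.5 CPM, was beyond 0.2 in size with each CHD9 hairpin and opposite in sign. Of 67071 gene identifiers, 11173 reached that level and 29 met both conditions, and TP53INP1, BTG2, SLC7A11 and KIF14, which were left out by name together with KIF11, take the number to 25. Hairpin 1 went with higher and hairpin 2 with lower levels of 9 of them (CYP1A1, LAMA3, LDLRAD4, LEF1, H2BC21, NECTIN4, ADIRF, BIK and ARHGAP10), and 16 showed the reverse. Because all libraries took part in the choice, the differences of the 25 genes from the control and between the hairpins are given as a description and carry no test.

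The cells were 22Rv1, an established human prostate carcinoma line that expresses the androgen receptor. Every library came from cells carrying a short hairpin RNA: 3 libraries had a hairpin against GFP (shGFP, the control, genotype labelled WT), 3 had CHD9 hairpin 1 and 3 had CHD9 hairpin 2, and all were grown in RPMI medium with serum. Polyadenylated RNA was sequenced, and the libraries held between 18911142 and 31968602 counts. The labels do not say whether the 3 libraries of a group were separate cultures, so the spread between them may be technical.

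A short hairpin RNA is processed into a small guide that lowers the transcripts it pairs with, and a guide can also pair in part with transcripts other than its target. For that reason a knockdown is usually made with more than 1 hairpin, and genes that move alike with each are set apart from genes that do not. CHD9 is a chromodomain helicase, an enzyme of the family that moves nucleosomes. CHD9 itself had a mean of 22.3 ± 1.40 CPM (SD, n = 3) with shGFP. Hairpin 1 left 15.2 ± 1.06 CPM, or 68.1% of the control level, and hairpin 2 left 19.0 ± 0.580 CPM, or 85.4%. Most genes moved the same way with both: among the 11173 genes, 8732 had the same sign with each hairpin, 2533 were beyond 0.2 on the log2 scale with both hairpins, and 2504 of these lay on the same side. Both differences are taken from the same shGFP libraries, so the signs with the 2 hairpins are not independent.

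**Figure D1:**
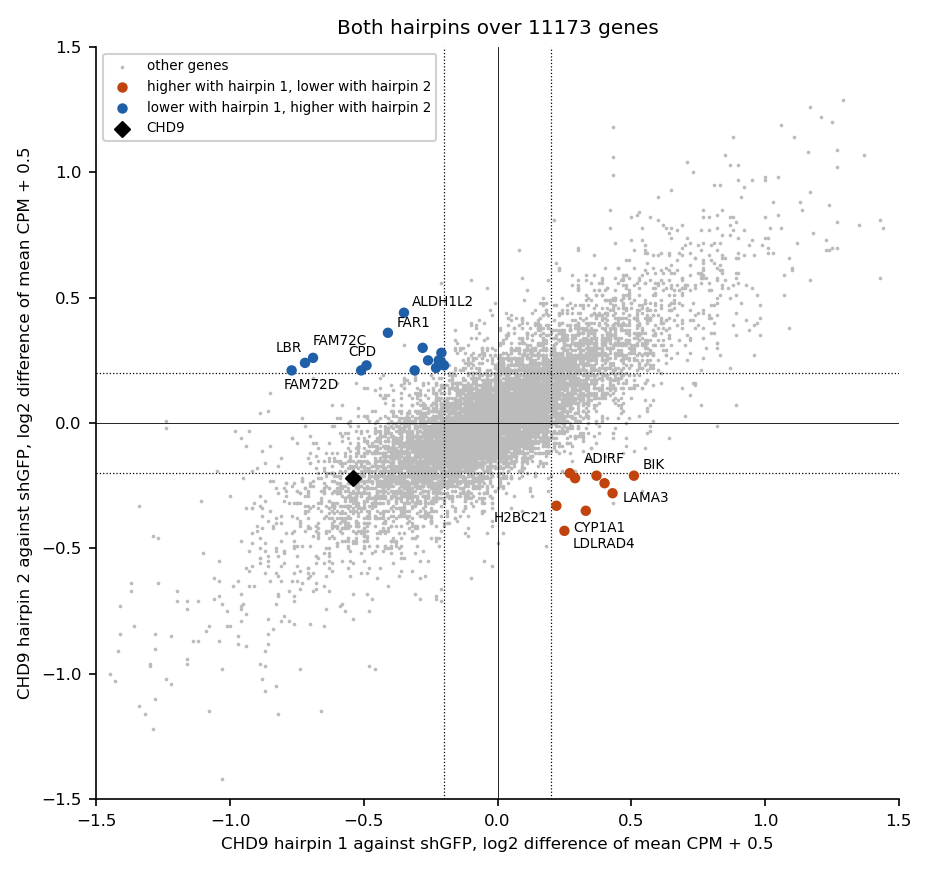
Each point is a gene with at least 5 CPM on average; the axes give the log2 difference of mean CPM + 0.5 from shGFP with CHD9 hairpin 1 (horizontal) and hairpin 2 (vertical), and dotted lines mark 0.2 in either direction. Most of the 11139 genes drawn lie along the rising diagonal, as CHD9 does (diamond, -0.54 and -0.22), the 25 genes lie in the upper left and lower right corners, and 34 genes fall outside the axes.

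The sequences upstream of 3 of the genes are shown because the results below set CYP1A1 against its neighbour CYP1A2, and FAM72C against its near copy FAM72D. All come from the RefSeq promoter table (GRCh38.p14), which reaches from 250 bases before a gene's start to 50 after it and held 20 of the 25 genes. The CYP1A1 window is chr15:74725479-74725778 on the minus strand and the CYP1A2 window is chr15:74748595-74748894 on the plus strand. Capitals mark GCGTG, the core letters to which the aryl hydrocarbon receptor binds with its partner ARNT, and the TATA motif TATAAA, both searched on either strand.
CYP1A1: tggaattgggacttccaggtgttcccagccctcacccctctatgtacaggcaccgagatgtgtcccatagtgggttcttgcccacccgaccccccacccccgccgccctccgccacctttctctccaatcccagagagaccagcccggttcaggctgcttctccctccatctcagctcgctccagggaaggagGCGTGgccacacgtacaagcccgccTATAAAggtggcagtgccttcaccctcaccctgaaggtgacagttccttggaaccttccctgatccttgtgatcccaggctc
CYP1A2: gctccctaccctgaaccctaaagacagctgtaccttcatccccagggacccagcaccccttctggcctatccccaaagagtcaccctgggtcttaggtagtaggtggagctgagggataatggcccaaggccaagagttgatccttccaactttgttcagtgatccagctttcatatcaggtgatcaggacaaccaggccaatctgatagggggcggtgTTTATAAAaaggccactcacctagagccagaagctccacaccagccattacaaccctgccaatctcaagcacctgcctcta
The CYP1A1 window holds GCGTG once, starting 57 bases before the start, and TATAAA 32 bases before it. In the CYP1A2 window GCGTG is not present, and the capitals TTTATAAA hold TATAAA on each strand with overlapping letters. Sequence outside the windows was not searched, and whether these letters bear on the levels was not tested. Over 35116 RefSeq promoters of this length, 36.5% hold GCGTG and 11.5% hold TATAAA. Of the 20 windows of the set, 14 and 5 do. The 35116 promoters were not limited to genes at 5 CPM or more, as the set is. Nothing is therefore read from the difference. For FAM72C (chr1:143971966-143972236, minus strand) the printed stretch is the 271 bases, of a window of 300, that it shares base for base with FAM72D (chr1:145095753-145096023, plus strand). The rest of each window is not shown, so this is not an identity of the whole windows. Capitals mark CCAAT, a motif frequent in promoters of cell cycle genes, which occurs 3 times here. It is present in 34.6% of all RefSeq promoters and in 12 of the 20 windows of the set, with the same limit.
FAM72C: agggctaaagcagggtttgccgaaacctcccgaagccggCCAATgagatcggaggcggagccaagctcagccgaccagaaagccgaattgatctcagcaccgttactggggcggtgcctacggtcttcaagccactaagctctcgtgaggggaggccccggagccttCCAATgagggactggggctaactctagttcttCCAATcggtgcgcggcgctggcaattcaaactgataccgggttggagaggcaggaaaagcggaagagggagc

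Across the set the differences were small and the genes were mostly of low level. The mean level ran from 5.09 CPM (BMPR1B) to 181 CPM (ADIRF) with a median of 11.1 CPM, against 38.6 CPM over all 11173 genes. The lowest count of any of the 25 genes in a library was 80. Within a group, the coefficient of variation had a median of 5.92% over the 25 genes and 3.99% over the 11173. In 20 of the 25 genes every library of 1 hairpin lay above, and every library of the other below, all 3 shGFP libraries, which held for 2.68% of the 11173 genes; the 5 exceptions include LAMA3, FAM72C, LEF1 and ARHGAP10. Libraries of hairpin 1 lay apart from shGFP in 24 genes, those of hairpin 2 in 21, and those of the 2 hairpins from each other in 25. The rule chose the genes on these same libraries, which favours such separation. The shares over all genes were not computed for these last counts, and nothing is read from them. The change was larger with hairpin 1 in 15 genes and with hairpin 2 in 10.

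**Figure D2:**
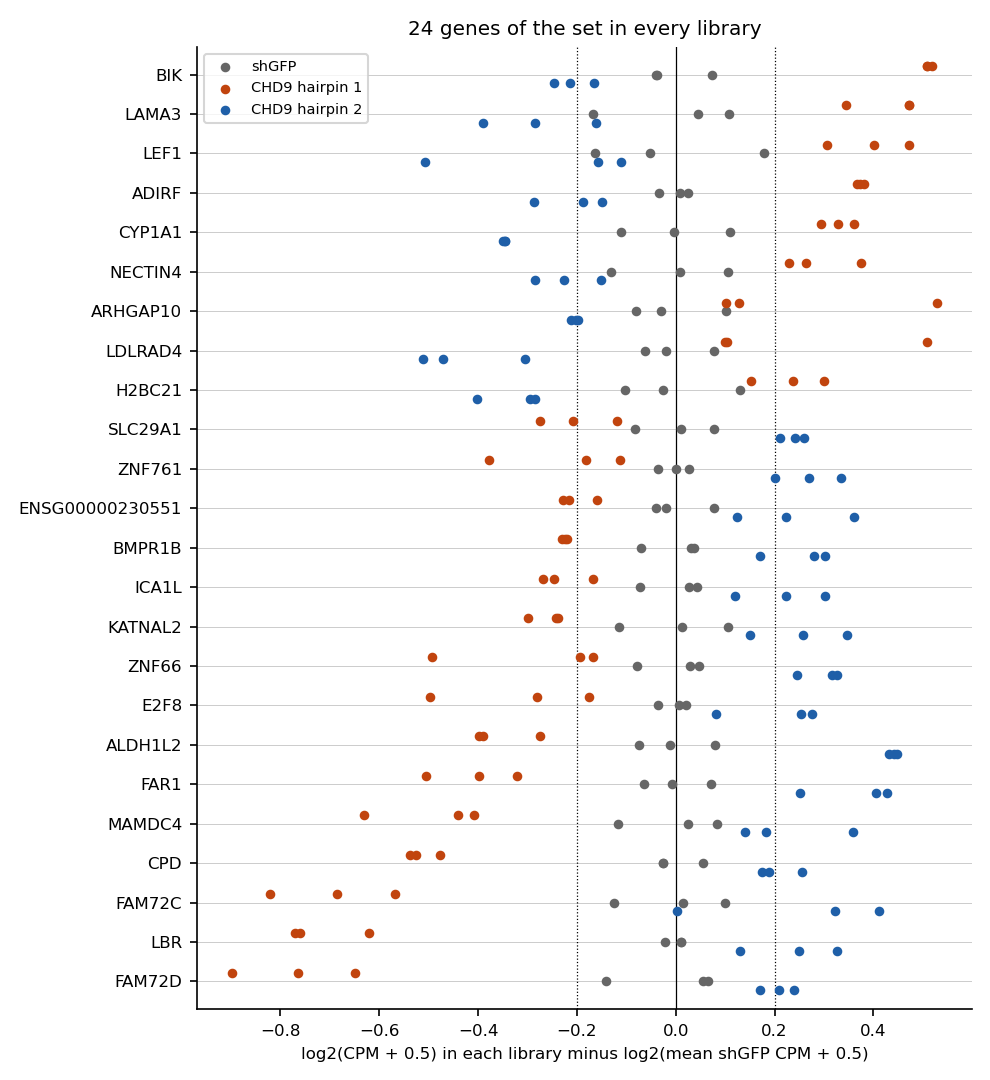
Each row is 1 of 24 genes of the set and each point 1 library, placed at its log2(CPM + 0.5) minus the same value of the shGFP mean; dotted lines mark 0.2 in either direction. The hairpin 1 and hairpin 2 points lie apart in all 24 rows, with the widest gap to shGFP in the hairpin 1 libraries of FAM72D (-0.77 for the group mean), and 1 hairpin 1 library stands well above the other two for LDLRAD4 and for ARHGAP10.

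In the edgeR quasi-likelihood fit over 16855 genes with Benjamini-Hochberg adjustment, 7972 genes (47.3%) passed an adjusted p of 0.05 with hairpin 1, 6009 (35.7%) with hairpin 2 and 4921 (29.2%) between the hairpins. Of the 25 genes, 20, 16 and 25 did so. Genes called with both hairpins in opposite directions numbered 145 (0.86%), or 96 without the first shGFP library, and 13 of them belong to the set, among them FAR1, ALDH1L2, CYP1A1, LAMA3, LDLRAD4, KATNAL2, LBR, H2BC21, ADIRF, E2F8, CPD and SLC29A1. The other 132 did not reach 0.2 with both hairpins or 5 CPM, or were left out by name. Since the rule chose the 25 genes on the same contrasts, these counts say nothing further about them.

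In bulk RNA, fewer cells that express a gene and less of its RNA per cell cannot be told apart. FAR1 and ALDH1L2 were the genes furthest from the control on both sides among those lower with hairpin 1, and both encode enzymes of metabolism. FAR1 makes fatty alcohols from acyl-CoA at the peroxisome, and these are used to make ether lipids. FAR1 (11:13668670-13732346, plus strand) was at 52.4, 50.4 and 55.4 CPM in the shGFP libraries, at 37.0, 42.1 and 39.9 CPM with hairpin 1, and at 62.8, 70.0 and 71.1 CPM with hairpin 2. No library of 1 group overlapped those of another, and the log2 differences were -0.41 and 0.36. ALDH1L2, the mitochondrial 10-formyltetrahydrofolate dehydrogenase, acts in the folate cycle and makes NADPH. Its levels (12:105019784-105084577, minus strand) were 50.6, 48.4 and 53.9 CPM with shGFP, 42.1, 38.8 and 38.6 CPM with hairpin 1 and 69.4, 69.0 and 69.7 CPM with hairpin 2. The 3 groups were apart here too, with log2 differences of -0.35 and 0.44, the largest rise with hairpin 2 in the set. ALDH1L2 overlaps NOPCHAP1 on the other strand, whose log2 fold changes were 0.53 and 0.52, and without the strand setting of the counting, which no source used here gives, reads of the pair cannot be told apart.

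Genes that work beside these enzymes were chosen for their function once the 25 genes were known, and the rule did not use their values. The other enzymes of the mitochondrial folate route did not fall with hairpin 1 as ALDH1L2 did. MTHFD2, which oxidises the one-carbon unit before ALDH1L2 acts, was at 148 ± 6.31 CPM (SD, n = 3) with shGFP, 178 ± 4.76 with hairpin 1 and 205 ± 3.64 with hairpin 2. It rose with both, by a log2 fold change of 0.29 ± 0.03 (SE; edgeR adjusted p = 1.5e-10) and 0.46 ± 0.03 (adjusted p = 2.7e-16), and was lower with hairpin 1 than with hairpin 2 (-0.17 ± 0.03, adjusted p = 2.5e-05). SHMT2, which loads the unit onto folate, rose with hairpin 2 (0.15 ± 0.03, adjusted p = 9.5e-06) and passed with hairpin 1 (0.07 ± 0.03, adjusted p = 0.027) and between the hairpins (-0.08 ± 0.03, adjusted p = 0.016). The call with hairpin 1 was lost without any 1 hairpin 1 library or the first or the third shGFP library (0.06 to 0.07, adjusted p from 0.056 to 0.11). The call between the hairpins was lost without the second or the third hairpin 1 library or the first hairpin 2 library (-0.06 to -0.08, adjusted p from 0.053 to 0.072). MTHFD1L, which releases formate, was lower with hairpin 1 than with hairpin 2 (-0.27 ± 0.05, adjusted p = 0.00013), and its values against shGFP were -0.10 ± 0.06 with hairpin 1 (adjusted p = 0.16) and 0.17 ± 0.05 with hairpin 2 (adjusted p = 0.011). Without the second or the third shGFP library the hairpin 2 value was 0.14 (adjusted p of 0.082 and 0.087). FAR2, the second acyl-CoA reductase, was also lower with hairpin 1 than with hairpin 2 (-0.25 ± 0.06, adjusted p = 0.00065). Against shGFP, FAR2 passed with hairpin 2 (0.19 ± 0.06, adjusted p = 0.0053), but not without the second hairpin 2 library (0.15, adjusted p = 0.066), and its hairpin 1 value was -0.05 ± 0.06 (adjusted p = 0.51). GNPAT and AGPS, enzymes of peroxisomal ether lipid synthesis, and PEX7, the import receptor of AGPS, did not pass between the hairpins (edgeR adjusted p of 0.67, 0.22 and 0.87).

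ALDH1L2 is a target of ATF4, the transcription factor of the amino acid response. Among 37 other tested genes of an ATF4 list, 15 were higher and 10 lower with hairpin 1, and 24 were higher and 2 lower with hairpin 2. Between the hairpins, 23 were lower with hairpin 1 and 4 higher, with a median log2 difference of -0.15 against 0.00 over all 16855 genes. MARS1, the methionyl-tRNA synthetase, was the gene among these 37 called in opposite directions.

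CYP1A1 was the gene furthest from the control on both sides among those higher with hairpin 1. It encodes the cytochrome P450 that is the classical target of the aryl hydrocarbon receptor, a ligand-activated transcription factor. CYP1A1 (15:74719542-74725610, minus strand) was at 32.2, 37.6 and 34.7 CPM with shGFP, at 43.8, 42.8 and 44.8 CPM with hairpin 1 and at 27.3, 27.3 and 27.2 CPM with hairpin 2. The groups did not overlap, and the log2 differences were 0.33 and -0.35. Between the hairpins, the neighbour CYP1A2 lay on the same side as CYP1A1, higher with hairpin 1 (1.10 ± 0.09 SE, edgeR adjusted p = 2.6e-13). Against shGFP, CYP1A2, whose gene body begins 23.2 kb away, rose with both hairpins. Its mean was 3.18 ± 0.768 CPM (SD, n = 3) under shGFP, 20.1 ± 1.30 with hairpin 1 (log2 fold change 2.66 ± 0.11 SE, edgeR adjusted p = 7.8e-24) and 9.67 ± 0.384 under hairpin 2 (1.56 ± 0.12, adjusted p = 4.4e-14).

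The receptor itself, AHR, was at 14.5, 14.1 and 13.1 CPM with shGFP, at 17.9, 18.7 and 21.6 CPM with hairpin 1 and at 11.5, 14.2 and 12.4 CPM with hairpin 2. It rose with hairpin 1 (0.52 ± 0.08, edgeR adjusted p = 1.1e-06) and was higher with hairpin 1 than with hairpin 2 (0.65 ± 0.08, adjusted p = 3.2e-08). With hairpin 2 its value was -0.12 ± 0.09 (adjusted p = 0.30). Its partner ARNT fell with hairpin 1 (-0.26 ± 0.04, adjusted p = 7.6e-08) and passed narrowly with hairpin 2 (-0.09 ± 0.04, adjusted p = 0.045). The hairpin 2 call was lost without any 1 library other than the first shGFP library (-0.07 to -0.10, adjusted p from 0.05 to 0.23). CYP1B1 and TIPARP, 2 further targets of the receptor, did not pass with either hairpin (adjusted p from 0.077 to 0.82), although TIPARP passed with hairpin 1 when the second hairpin 1 library was left out (-0.22, adjusted p = 0.032). AHRR, a repressor of the receptor, was at 0.177 CPM on average and was not tested.

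**Figure D3:**
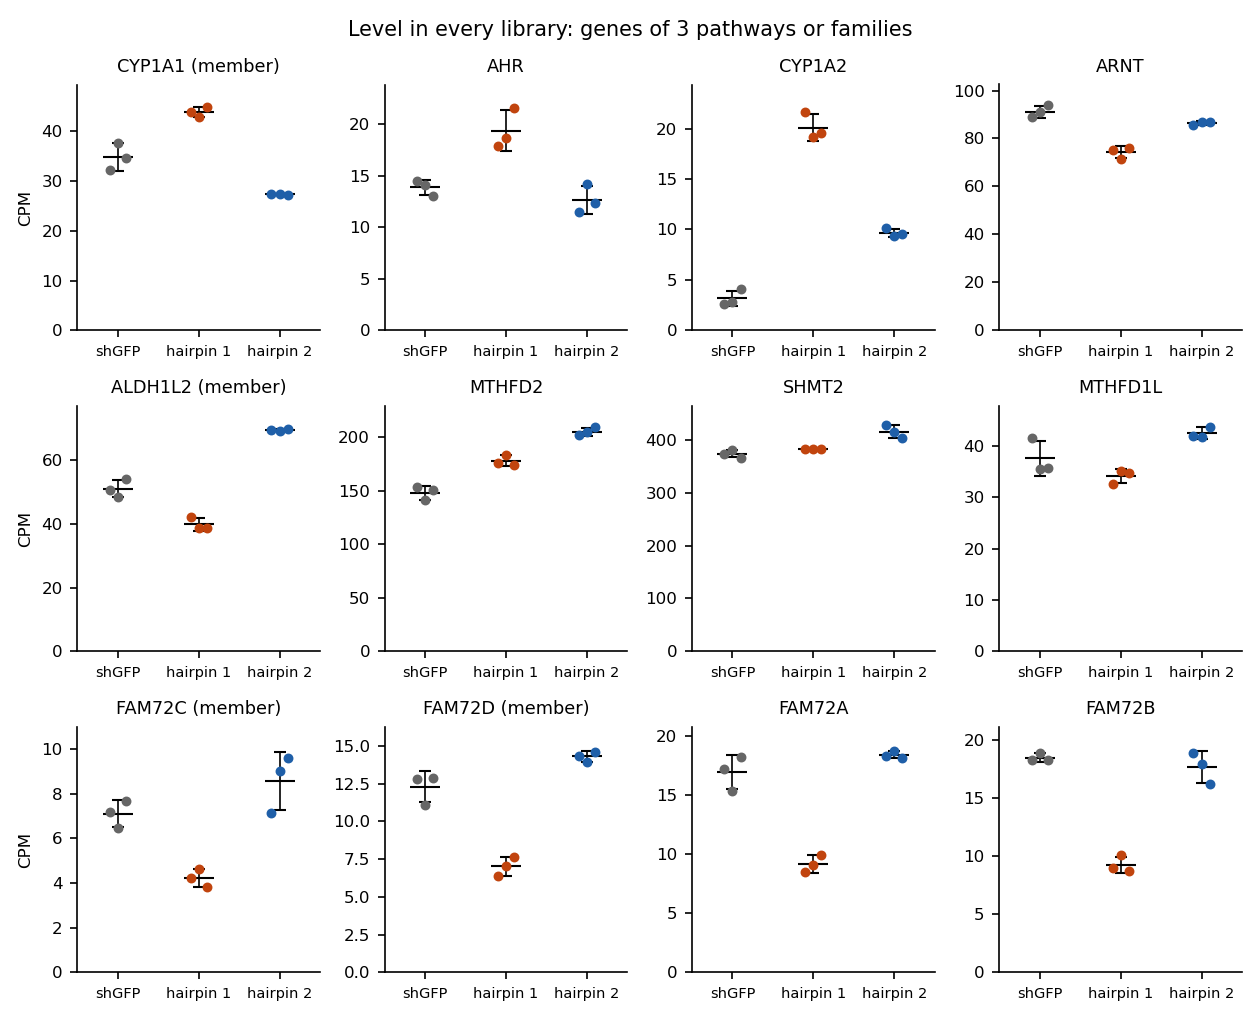
CPM in each library (points) with the group mean and SD (bars, n = 3) for CYP1A1, ALDH1L2 and the FAM72 genes beside genes of the same pathway or family; each vertical axis starts at 0. AHR follows CYP1A1 with hairpin 1 while CYP1A2 is above shGFP with both hairpins, MTHFD2 is above shGFP with both, and all 4 FAM72 genes are lowest with hairpin 1.

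LBR had the highest control level among the genes lower with hairpin 1. The lamin B receptor sits in the inner nuclear membrane, where it holds heterochromatin through the HP1 proteins, and its membrane part is a sterol reductase of cholesterol synthesis. LBR (1:225401502-225428925, minus strand) was at 138, 138 and 135 CPM with shGFP, at 80.7, 88.9 and 80.1 CPM with hairpin 1 and at 150, 163 and 172 CPM with hairpin 2. Every hairpin 1 library lay far below, and every hairpin 2 library above, the controls, with log2 differences of -0.72 and 0.24. TM7SF2, the other sterol C14 reductase, fell with hairpin 2 (-0.42 ± 0.03 SE, edgeR adjusted p = 1.6e-13), and its value with hairpin 1 was 0.01 ± 0.03 (adjusted p = 0.82). CBX5, which encodes the HP1 protein that LBR binds, fell with both (-0.40 ± 0.02, adjusted p = 3.2e-18, and -0.13 ± 0.02, adjusted p = 2.1e-05). Among the lamins, LMNB2 rose with both hairpins (0.29 ± 0.02 and 0.22 ± 0.02), LMNA fell with both (-0.15 ± 0.02 and -0.08 ± 0.02), and LMNB1 fell with hairpin 2 (-0.16 ± 0.03, adjusted p = 2.5e-06).

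FAM72C and FAM72D, small proteins encoded by near copies on chromosome 1, had the lowest share of the control level with hairpin 1, at 59.4% and 57.1%. The longest protein-coding transcripts of the 4 family members are between 99.46% and 99.83% identical, and FAM72C and FAM72D differ at 4 aligned bases. Counts of single copies are therefore uncertain, since a read may come from any of them. FAM72C was at 7.19, 6.48 and 7.66 CPM with shGFP, at 4.23, 4.63 and 3.81 CPM with hairpin 1 and at 7.12, 9.01 and 9.62 CPM with hairpin 2. FAM72D was at 12.8, 11.1 and 12.9 CPM, at 6.37, 7.04 and 7.66 CPM and at 14.3, 13.9 and 14.6 CPM. The hairpin 2 libraries overlapped those of shGFP for FAM72C and lay above them for FAM72D.

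The other copies were also lower with hairpin 1. FAM72A fell with hairpin 1 (log2 fold change -0.85 ± 0.09 SE, edgeR adjusted p = 3.1e-11) and so did FAM72B (-0.97 ± 0.08, adjusted p = 4.2e-13). With hairpin 2 their values were 0.11 ± 0.08 (adjusted p = 0.28) and -0.07 ± 0.08 (adjusted p = 0.53), beside 0.26 ± 0.12 for FAM72C and 0.20 ± 0.09 for FAM72D; whether the copies differ from each other was not tested. Summed over the 4 genes, a quantity that does not depend on how reads were split between copies within the family, the level was 54.8 ± 2.64 CPM (SD, n = 3) with shGFP, 29.7 ± 1.40 with hairpin 1 and 59.0 ± 0.610 with hairpin 2. On the log2 scale the sum moved by -0.87 and 0.10, and thus did not reach 0.2 with hairpin 2.

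E2F8, an atypical E2F factor that represses genes of DNA synthesis, was at 19.9, 20.5 and 20.7 CPM with shGFP, at 18, 16.7 and 14.3 CPM with hairpin 1 and at 24.8, 21.6 and 24.4 CPM with hairpin 2. Its log2 differences were -0.31 and 0.21 and the groups did not overlap. E2F7, which acts together with E2F8, fell with both hairpins (-0.46 ± 0.05, edgeR adjusted p = 6.5e-11, and -0.29 ± 0.05, adjusted p = 2e-06), as did E2F1 (-0.25 ± 0.03, adjusted p = 5.6e-08, and -0.17 ± 0.03, adjusted p = 6.4e-05). Of 45 other tested genes of DNA replication and S phase, 26 were lower and 2 higher with hairpin 1, and 13 were lower and 6 higher with hairpin 2. The 2 became 1 without the second or the third hairpin 1 library or the second shGFP library, and the 6 became 3 without the third hairpin 2 library or the first or second shGFP library; both did so in DESeq2 and without the filter on low counts. Between the hairpins, 29 were lower with hairpin 1 and 0 higher, with 16 that did not pass and a median of -0.10 against 0.00 over all genes tested. Of the 45, 0 were called in opposite directions in edgeR (0 at an unadjusted p of 0.05, and 0 in DESeq2), and at an unadjusted p of 0.05 1 gene was higher with hairpin 1 than with hairpin 2 in edgeR, and 0 at an adjusted p in DESeq2; without the third hairpin 2 library 1 was higher in edgeR at an adjusted p.

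KATNAL2, a relative of the microtubule-severing katanins, stood at 11.3 ± 0.931 CPM with shGFP, 9.36 ± 0.231 with hairpin 1 and 13.6 ± 0.961 with hairpin 2 (SD, n = 3). It overlaps PIAS2 on the other strand, whose log2 fold changes were 0.50 and 0.46. H2BC21, a histone H2B gene that is one of several near copies and so uncertain in its counts, went the other way, with 11.2 ± 1.00 CPM under shGFP, 13.2 ± 0.684 with hairpin 1 and 8.83 ± 0.412 with hairpin 2. H2BC12, another H2B gene, fell with both hairpins (-0.87 ± 0.10 and -0.94 ± 0.10; edgeR adjusted p of 1.2e-09 and 3.4e-10).

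The signalling genes of the set belong to the Wnt, TGF-beta and BMP pathways. LEF1 is a transcription factor through which beta-catenin acts. It was at 9.73, 11.5 and 8.96 CPM with shGFP, at 14.2, 13.5 and 12.6 CPM with hairpin 1 and at 6.96, 9.32 and 9.0 CPM with hairpin 2. The hairpin 1 libraries lay above all others, whereas 2 of the hairpin 2 libraries fell within the range of the controls. AXIN2, a target and inhibitor of Wnt signalling, rose with hairpin 1 (log2 fold change 0.66 ± 0.12 SE, edgeR adjusted p = 8.1e-06) and was higher with hairpin 1 than with hairpin 2 (0.68 ± 0.12, adjusted p = 8.1e-06), with -0.02 ± 0.12 for hairpin 2 (adjusted p = 0.92). The related factors TCF7 and TCF7L1 rose with both hairpins (0.61 ± 0.12 and 0.61 ± 0.12 for TCF7, 0.77 ± 0.17 and 0.68 ± 0.17 for TCF7L1). Of 37 other Wnt genes, 13 were higher and 6 lower with hairpin 1 than with hairpin 2, with a median of 0.08.

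LDLRAD4 is a membrane protein that dampens TGF-beta signalling by holding SMAD2 and SMAD3. Its levels were 8.99, 8.38 and 8.12 CPM with shGFP, 12.3, 9.14 and 9.17 CPM with hairpin 1 and 5.81, 6.79 and 5.99 CPM with hairpin 2. The fall with hairpin 2 was seen in all 3 libraries, but the rise with hairpin 1 came mainly from the first library, without which its log2 difference was 0.10 rather than 0.25. PMEPA1, which acts in the same way, rose with both hairpins (0.65 ± 0.08 and 0.31 ± 0.08; edgeR adjusted p of 1.7e-09 and 0.0015). BMPR1B, a type I BMP receptor, was near the lowest level admitted, at 5.01 ± 0.224 CPM with shGFP, 4.21 ± 0.0166 with hairpin 1 and 6.06 ± 0.317 with hairpin 2 (SD, n = 3). The sister receptor BMPR1A fell with hairpin 1 (-0.23 ± 0.06, adjusted p = 0.00053) and was lower there than with hairpin 2 (-0.23 ± 0.05, adjusted p = 0.00066). In a list of 39 other TGF-beta, BMP and ID genes, 14 were higher and 6 lower with hairpin 1 than with hairpin 2, with a median of 0.05, and SMAD7 was called in opposite directions. ARHGAP10, a GTPase-activating protein, was at 7.53, 7.39 and 10.1 CPM with hairpin 1 against 6.45, 6.70 and 7.39 CPM with shGFP. Its log2 difference with hairpin 1 was 0.27, or 0.12 without the third hairpin 1 library, and -0.20 with hairpin 2.

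Several members act at the cell surface. LAMA3, the alpha chain of laminin-332 in epithelial basement membranes, was at 8.20, 7.01 and 8.58 CPM with shGFP, at 11.2, 11.2 and 10.2 CPM with hairpin 1 and at 5.93, 7.04 and 6.42 CPM with hairpin 2. All hairpin 1 libraries lay above the controls, and the second hairpin 2 library was level with the second control. The partner chain LAMB3 fell with both hairpins (-1.16 ± 0.15, edgeR adjusted p = 1.2e-08, and -0.46 ± 0.14, adjusted p = 0.0064). LAMA5, another alpha chain, rose with both (0.37 ± 0.04 and 0.19 ± 0.04; adjusted p of 9.9e-12 and 5.4e-05). The nearest tested gene beside LAMA3, ANKRD29 at 26.6 kb, showed fold changes of 0.49 and -0.24 on the log2 scale. ANKRD29 was not called in opposite directions, and TTC39C, on the other side at 36.6 kb, had 0.47 and 0.45. NECTIN4, an adhesion protein of epithelial junctions, was at 9.91 ± 0.868 CPM with shGFP, 12.2 ± 0.666 with hairpin 1 and 8.44 ± 0.421 with hairpin 2 (SD, n = 3). NECTIN1 rose with both hairpins (0.22 ± 0.03 and 0.14 ± 0.03; adjusted p of 6.8e-07 and 0.0016).

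CPD, a carboxypeptidase of the Golgi that trims secreted and membrane proteins, was at 90.4, 90.4 and 95.7 CPM with shGFP, at 63.8, 66.0 and 63.3 CPM with hairpin 1 and at 104, 110 and 105 CPM with hairpin 2. The groups were well apart, although the change with hairpin 2 (0.21) was less than that with hairpin 1 (-0.51). SLC29A1, the equilibrative nucleoside transporter ENT1, was nearest to the threshold among the members, at 126 ± 7.14 CPM with shGFP, 110 ± 5.68 with hairpin 1 and 148 ± 2.69 with hairpin 2 (SD, n = 3). SLC29A2, the related transporter, rose with hairpin 1 (0.21 ± 0.04 SE, edgeR adjusted p = 1.1e-05).

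ADIRF, a small protein named for its role in adipocyte differentiation, was the highest gene of the set. It was at 168, 173 and 175 CPM with shGFP, at 222, 224 and 223 CPM with hairpin 1 and at 155, 151 and 141 CPM with hairpin 2. The hairpin 1 libraries differed by less than the controls did and lay well above them. BIK, a BH3-only protein that promotes apoptosis, had the largest rise with hairpin 1 (0.51), from 8.46, 8.47 and 9.19 CPM to 12.7, 12.6 and 12.6 CPM, and was at 7.44, 7.26 and 7.71 CPM with hairpin 2. BAK1, an effector of the same pathway, rose with both hairpins (0.50 ± 0.05 and 0.42 ± 0.05; edgeR adjusted p of 1.7e-12 and 6.2e-10). BAX fell with hairpin 2 (-0.26 ± 0.04, adjusted p = 1.2e-06) and was higher with hairpin 1 than with hairpin 2 (0.20 ± 0.04, adjusted p = 9.6e-05). MCL1, which opposes these proteins, fell with both (-0.15 ± 0.02 and -0.14 ± 0.02). Of 40 other apoptosis regulators, 16 were higher and 4 lower with hairpin 1 than with hairpin 2, with a median of 0.10. The 4 became 1 without the second hairpin 2 library and 2 without the first hairpin 1 library. Against shGFP, 8 of the 40 were higher and 11 lower with hairpin 1, and 6 higher and 15 lower with hairpin 2.

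**Figure D4:**
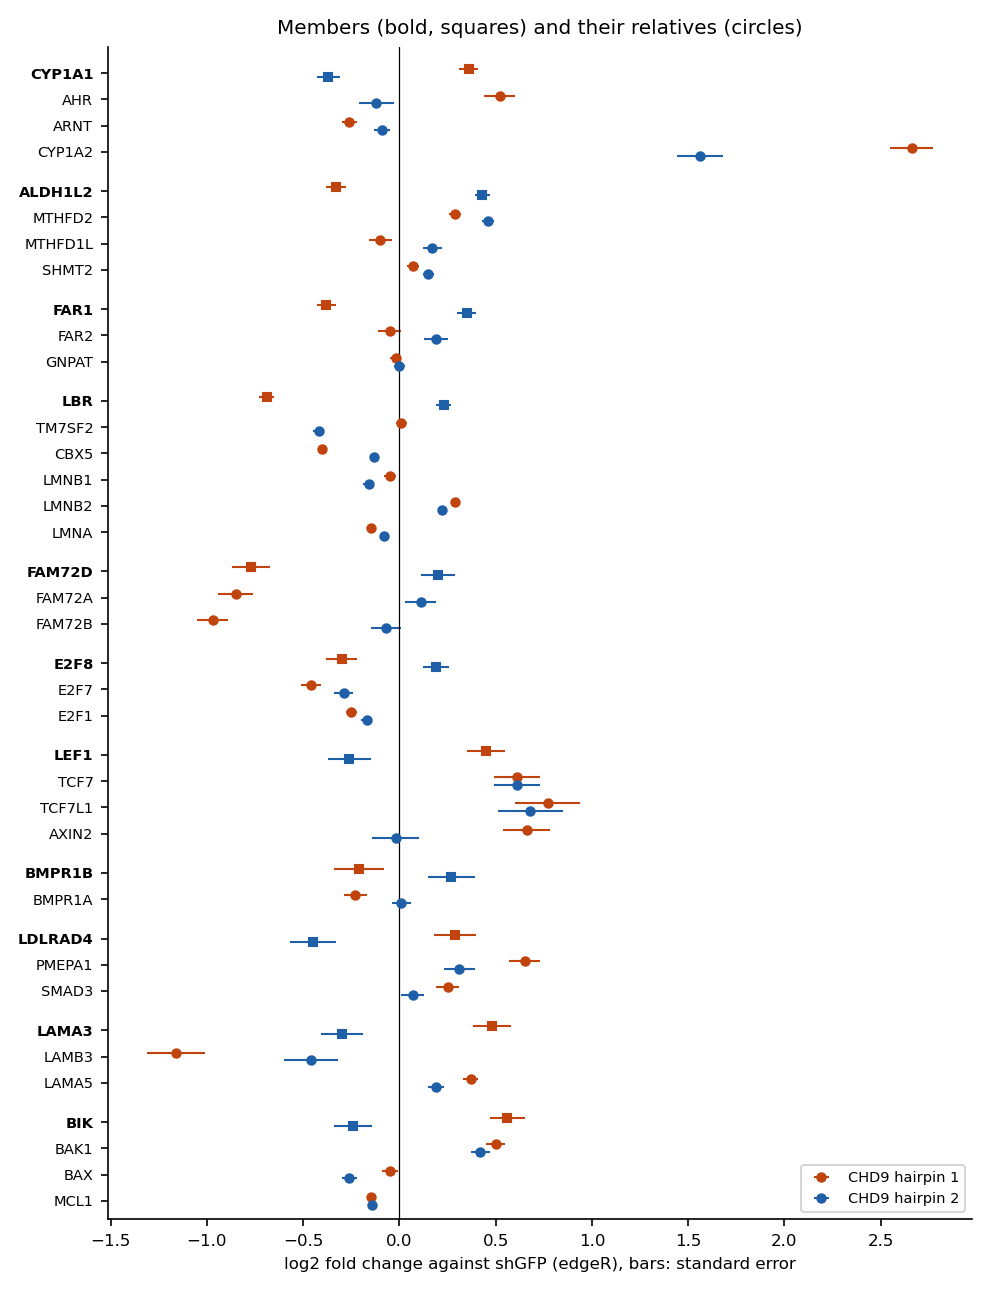
Log2 fold change against shGFP in the edgeR fit, with its standard error, for 11 of the 25 genes (bold, squares) and relatives chosen by function (circles), with CHD9 hairpin 1 in red and hairpin 2 in blue. The squares of each gene of the set lie on opposite sides of 0, as the rule requires, whereas CYP1A2, MTHFD2, TCF7 and BAK1 lie right of 0 with both hairpins and E2F7, LAMB3 and CBX5 lie left of it.

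The remaining members were ZNF66 and ZNF761, zinc finger proteins encoded on chromosome 19, MAMDC4, ICA1L and the processed transcript ENSG00000230551, all lower with hairpin 1. MAMDC4 fell most with hairpin 1, from 9.01 ± 0.665 CPM to 6.27 ± 0.557, and was at 10.7 ± 0.897 with hairpin 2 (SD, n = 3). It overlaps PHPT1 on the same strand, which lay at -0.22 and -0.11 on the log2 scale. ENSG00000230551 lies over CSNK1A1 on the same strand, so reads of the 2 could not be told apart with certainty. The same holds for ZNF761, which overlaps TPM3P9 on the same strand (13.9 CPM on average, log2 fold changes of -0.18 and 0.07). ZNF66 was at 5.13 ± 0.261 CPM with shGFP, 4.14 ± 0.562 with hairpin 1 and 6.41 ± 0.212 with hairpin 2. Of 88 other zinc finger KRAB repressor genes, 31 were lower and 2 higher with hairpin 1 than with hairpin 2, with a median of -0.14. These counts were 19 and 1 without the first hairpin 1 library, and also without the second hairpin 2 library. Of the 88, 0 were called in opposite directions (edgeR; 0 unadjusted, and 0 in DESeq2). Just inside the threshold were ENSG00000230551 (smaller of its 2 differences 0.206), ARHGAP10 (0.203) and SLC29A1 (0.201), and just outside it were EEIG1 (0.198), AMOTL1 (0.194) and TMEM19 (0.192).

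Taking the relatives as a whole, 68 genes were tested. With hairpin 1, 23 were higher and 16 lower, with hairpin 2, 21 and 15, beside 47.3% and 35.7% called over all genes. Against 0.86% of all genes, 0 relatives were called in opposite directions in edgeR (0 at an unadjusted p of 0.05, and 0 in DESeq2). Of these calls, 31 of 39 with hairpin 1 and 28 of 36 with hairpin 2 held in every other fit that was run. Between the hairpins 31 passed, beside 29.2% over all genes, 22 on the side of the member they were chosen for and 9 on the other side. The 22 include FAM72A and FAM72B, whose reads may be shared with the members FAM72C and FAM72D. Of these 31 calls, 21 held in every other fit that was run, 15 on the side of the member and 6 on the other. Of the 50 tested genes that lie nearest to the members on the chromosome, 20 passed between the hairpins (29.2% over all genes), 16 on the side of the member and 4 on the other, and 0 were called in opposite directions (edgeR; 0 unadjusted, and 0 in DESeq2). With 0.86% of all genes called in opposite directions, nothing about relatives or neighbours is read from these zeros. CYP1A2 is counted among both the relatives and the neighbours. Shares on each side were not computed over all genes, so nothing is read from the sides either.

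Base composition differed between the directions. G and C content was taken from the longest transcript of each gene. Its median was 52.1% for the 9 genes higher with hairpin 1, 41.0% for the 16 genes lower with hairpin 1, and 48.2% for all genes at 5 CPM or more. A like order was seen over the whole table, in which the median log2 difference of hairpin 1 from hairpin 2 was -0.13 among the 3704 genes with the lowest GC content, -0.02 among the 3705 in the middle and 0.03 among the 3704 with the highest. The lowest class held 0 of the 9 and 12 of the 16 genes. The part of base composition in the result was not tested. Median exonic length was 5.26 kb against 5.19 kb over all genes, and 24 of the 25 genes were protein coding. Chromosome 1 held 5 members (20.0%, against 10.3% of all genes), and chromosome 18 held 3 (LAMA3, LDLRAD4 and KATNAL2; 12% against 1.46%). All 10 markers of prostate luminal cells were above 1 CPM in these cells, with a summed level of 1930 to 1960 CPM with shGFP, 2180 to 2210 with hairpin 1 and 2160 to 2180 with hairpin 2. Of 8 immune and 6 endothelial markers 0 were above 1 CPM, and of 8 stromal markers 3 were, summing to between 9.04 and 13.7 CPM in all libraries. CD3E, MS4A1, CDH5 and KDR were at 0 in every library.

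Since the rule used all libraries, it was also applied to the libraries of 2 replicate numbers and the result read in the third library of each group. It chose 38, 34 and 30 genes when replicate 1, 2 or 3 was left out, of which 28, 22 and 16 kept both signs in the libraries not used and 8, 9 and 7 were still beyond 0.2 with both hairpins. In total 66 of 102 choices kept both signs and 24 kept the size. The median size of the change with hairpin 2 went from 0.240 in the libraries used to 0.118 in the first replicate, from 0.249 to 0.227 in the second and from 0.248 to 0.246 in the third. LAMA3, LEF1 and FAM72C were members that lost a sign in 1 of the 3 rounds.

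FAR1, ALDH1L2, CYP1A1 and LAMA3 met the rule without any 1 of the 9 libraries in turn and with both other library scalings. FAR1, ALDH1L2 and CYP1A1 were the 3 that also passed a threshold of 0.3. With TMM or DESeq2 size factors in place of raw totals, 16 members met the rule; those that did not include BMPR1B, CPD, E2F8, ENSG00000230551, FAM72D, ICA1L, SLC29A1 and ZNF761. In the contrast of the mean of both hairpins against shGFP, 7675 genes (45.5%) passed in edgeR, and of the 25 genes LBR, CPD and FAM72D were called lower and ADIRF higher. This contrast is built from the libraries and differences that chose the 25 genes, so those calls are a description and test nothing about them.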

How the data were processed

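RNA of 22Rv1 cells was sequenced in 9 libraries, 3 each for shGFP and the 2 CHD9 hairpins. Reads were processed with Trim Galore and STAR against hg38, and DESeq2 was used, per the submitters' processing notes. Not given in the sources used here were their versions, the annotation, the read counter and its use of strand. The authors deposited raw counts per gene in a single table, without normalisation or pooling. Columns were matched to samples by their titles.

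CPM were computed on raw column sums. The members and the gene lists were chosen with earlier results of these data known, and relatives of members were picked by function after the members were known. Tests were edgeR 4.0.16 quasi-likelihood tests in R 4.3.3 (filterByExpr with a minimum count of 10, TMM, a mean per group, all 9 libraries, Benjamini-Hochberg adjusted p under 0.05). In counts simulated for the call in opposite directions over 16748 tested genes, 31 of 34 genes changed oppositely by 1.25-fold were called, as were 33 of 33 at 1.5-fold and 33 of 33 at 2-fold, with 0 other genes. Smaller changes, which most members had with at least 1 hairpin, were not simulated. Far fewer genes were changed in the simulation than were called in the data, so these shares do not carry over to the members. A standard error is the size of the log2 fold change divided by the square root of the F statistic. Lists were described by counts and medians with no set test. Coordinates, GC content and biotypes come from GENCODE 29 (GRCh38), and symbols were found for 60704 of 67071 identifiers. The libraries held 18911142 to 31968602 counts, and the common biological coefficient of variation was 2.74%. P-values measure the spread between these libraries. Named genes are the members (1 is counted but not reported here by name), the 3 genes nearest outside the threshold, CHD9 and the genes left out; relatives, neighbours and list genes called in opposite directions were added by the rules above. Alternatives covered scaling (including DESeq2 1.42.0 size factors), the DESeq2 Wald test, filters, pseudocount, thresholds, a replicate block and leaving out each library.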

Additional observations from a re-analysis of the deposited data

How the results depend on the processing

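The number of genes meeting the rule was 25. It was 21 with TMM and 21 with DESeq2 size factors (16 shared with the 25 in each), 28 with group medians (14 shared) and 25 to 37 with 1 library left out (16 to 22 shared). It was 14 with a pseudocount of 2 CPM, 68 with a minimum of 1 CPM, 16 with a minimum of 10 CPM and 3 with a threshold of 0.3. The 600 recomputed differences of members from shGFP kept their sign, and 48 moved by more than 1 SD. Genes called in opposite directions numbered 145 in edgeR, 105 with the DESeq2 Wald test, 69 at an adjusted p of 0.01, and 96 (without the first shGFP library) to 168 (without the first hairpin 2 library) with 1 library left out; of the members, 7 to 14 were called so over all of these. The cause of these shifts was not tested. Of 102 choices made on 2 replicates, 66 kept both signs, or 57 with TMM. Of 2852 recomputed values of relatives, 104 lost and 18 gained a call and 0 reversed. List counts that the report prints and that moved by over 1.5 times are given there with their values; of 49 extracellular matrix genes 14 were higher with hairpin 1 than with hairpin 2, and 9 without the second hairpin 2 library. Alternatives for relatives, lists and the TMM form of the 2-replicate choice were added after the data were seen. Replicate numbers did not pair the libraries (0 of 9 same-number correlations above 0.1); with the numbers as a block in the fit, 150 genes were called in opposite directions, 14 of them members. Low counts limit the members near 5 CPM.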
